A study of Mus musculus with 95 samples.

Results

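The core circadian clock genes Cry1, Per1 and Per2 and the clock-linked transcription factor genes Dbp and Nfil3 were followed across mouse lungs of 19 groups. They were selected by name, from group levels in these same arrays, to see how far the groups differ in clock transcripts. The platform annotation pairs 8 probe sets with 1 of these 5 genes only, out of 8252 genes measured. Because the choice drew on levels in all groups, the levels and group differences of the 5 genes are given as a description with no test. Tests are given for 17 other clock genes and for the way the 5 genes varied between mice of the same group.

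The study measured lung RNA of mice housed with a mouse heavily infected with Pneumocystis murina, a fungus of the mouse lung, and of unexposed mice. All mice were 8 weeks old and female per the labels, and were either C57BL/6, the wild type, or CD40L-KO, which lack CD40 ligand, the T cell molecule that activates B cells and macrophages. In C57BL/6 there were 8 exposed and 4 unexposed mice on day 7, 8 and 6 on day 14, 6 and 5 on day 21, 3 and 2 on day 32, 10 and 5 on day 34, 10 and 5 on day 41, and 3 exposed mice on day 75. In CD40L-KO there were 3 exposed and 3 unexposed mice on day 32, 4 exposed mice on day 35, 5 unexposed mice labelled day 14, 2 exposed mice on day 39 and 3 on day 75. Day 32 was experiment 1, days 34 and 41 experiment 2, and days 7, 14 and 21 experiment 3. The unexposed mice labelled day 14 are set against day 35 as the controls of experiment 4, so that day and exposure cannot be told apart there. Cages held either exposed or unexposed animals, which means that cage and exposure cannot be told apart, whereas the unexposed mice of days 34 and 41 came from 1 cage. The sources used here do not give the time of day at which lungs were taken.

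The mammalian clock is a feedback loop in which CLOCK and BMAL1 bind E-box sequences and drive the Per and Cry genes, whose proteins then repress CLOCK and BMAL1. A second loop runs through the nuclear receptors REV-ERB alpha and beta, encoded by Nr1d1 and Nr1d2, which repress Bmal1, Cry1 and Nfil3. Dbp is a direct CLOCK and BMAL1 target and an activator at D-box sequences, at which the repressor NFIL3 competes with it. In lung, as in other organs, these transcripts cycle over the day, so that Dbp, Nr1d1 and Nr1d2 peak close together and Cry1 and Nfil3 peak many hours away from them. Per1 also answers quickly to glucocorticoids, cyclic AMP and other acute signals.

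The 95 arrays carried lung transcripts throughout, with mean levels of alveolar type 2 markers between 9.28 and 10.4 and of club cell markers between 11.0 and 12.9 on the log2(intensity + 8) scale. A set of 16 arrays also carried transcripts of squamous epithelium (mean of 8 markers at least 6), 3 of them among the 10 exposed mice of day 34 and 4 among the 5 unexposed mice of that day. Skeletal muscle transcripts (mean of 10 markers) ran from 4.76 to 8.37 in the exposed mice of day 34, against 4.59 to 8.82 in the unexposed mice of that day. They ran from 4.58 to 7.74 in the exposed mice of day 41, against 4.84 to 5.15 in the unexposed mice of that day. Other experiments carried them too, with maxima of 8.96 and 8.78 in unexposed C57BL/6 mice of days 14 and 21. The maximum was 8.56 in exposed C57BL/6 mice of day 7 and 8.74 in unexposed CD40L-KO mice of day 32. The Gapdh control ratio (log2 of 3' end over 5' end signal, a measure of RNA integrity) ran from -0.16 to 1.59 in the exposed mice of day 34, against 0.27 to 2.13 in the unexposed mice of that day. On day 41 it ran from -0.14 to 0.17 in exposed mice, against -0.07 to 0.13 in the unexposed ones. In 17 arrays, which were all arrays of 5 groups, the Y-linked Eif2s3y was brighter than Xist although the labels give female mice. These were the CD40L-KO groups of days 35, 39 and 75, the CD40L-KO controls labelled day 14 and the C57BL/6 group of day 75, so both groups of experiment 4 shared this state.

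Promoter windows of 300 bases, from 250 bases before to 50 after a transcript start (RefSeq, GRCm38.p6), were matched to 4 of the 5 genes; Per2 is named only. They were searched on both strands for the E-box CACGTG, the D-box forms TTATGTAA and TTACGTAA, the cyclic AMP response element TGACGTCA and the nuclear receptor core site AGGTCA, whose other strand reads TGACCT. The windows below are those of the members that held a match, with the matches in capitals.
Cry1: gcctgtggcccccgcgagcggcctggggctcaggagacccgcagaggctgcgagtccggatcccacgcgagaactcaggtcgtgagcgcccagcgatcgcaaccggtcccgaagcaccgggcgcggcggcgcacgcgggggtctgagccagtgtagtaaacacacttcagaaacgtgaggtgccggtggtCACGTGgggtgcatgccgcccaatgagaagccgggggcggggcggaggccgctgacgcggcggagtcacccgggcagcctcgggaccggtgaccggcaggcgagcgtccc
Per1: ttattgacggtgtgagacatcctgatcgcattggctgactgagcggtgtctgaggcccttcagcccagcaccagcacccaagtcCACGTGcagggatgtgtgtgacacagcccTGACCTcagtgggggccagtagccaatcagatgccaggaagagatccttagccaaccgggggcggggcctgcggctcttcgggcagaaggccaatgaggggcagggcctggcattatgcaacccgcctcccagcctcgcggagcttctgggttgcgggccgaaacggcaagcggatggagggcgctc
Nfil3: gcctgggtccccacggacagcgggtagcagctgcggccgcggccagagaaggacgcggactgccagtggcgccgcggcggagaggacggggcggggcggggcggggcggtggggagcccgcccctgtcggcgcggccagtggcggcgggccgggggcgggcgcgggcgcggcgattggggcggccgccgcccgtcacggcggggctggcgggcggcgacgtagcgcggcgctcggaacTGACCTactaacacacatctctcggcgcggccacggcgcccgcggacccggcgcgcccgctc
The Cry1 window lies at chr10:85185005-85185304 on the minus strand and has its E-box starting at -60. The Per1 window lies at chr11:69098699-69098998 on the plus strand and holds an E-box at -166 and a core site at -137. In Nfil3 the window is chr13:52980990-52981289 on the minus strand, with a core site at -12. The Dbp window at chr7:45704997-45705296 and the other Per1 window at chr11:69099902-69100201 held none of these letters. Among all 32851 promoter windows of the table, 7.15% held the E-box, 1.06% a D-box form, 1.79% the cyclic AMP response element and 16.3% the core site, so a match is a description of these letters and not a binding site.

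Cry1 was the brightest of the 5 genes and Dbp the dimmest, although intensities of different probe sets are not comparable as amounts of RNA. The main Cry1 probe set (94420_f_at) read between 95.8 and 286 intensity units over the 95 arrays, Per1 (93619_at) between 8.46 and 184, Nfil3 (102955_at) between 21.2 and 82.8, Per2 (93694_at) between 0.94 and 36.2 and Dbp (160841_at) between 1.15 and 26.1. Dbp lay below 6.76, the 20th percentile of all intensities, on 78 of 95 arrays and Per2 on 14, so most Dbp values are close to the floor of the array. The other Cry1 probe sets (94421_r_at and 161225_r_at) were below that level on 93 and 94 arrays and carry little information, and the suffix of 94420_f_at marks a probe set that may share probes with related sequences. Nfil3 has a second bright probe set (101805_f_at), which read 6.45 to 65.9.

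**Figure D1:**
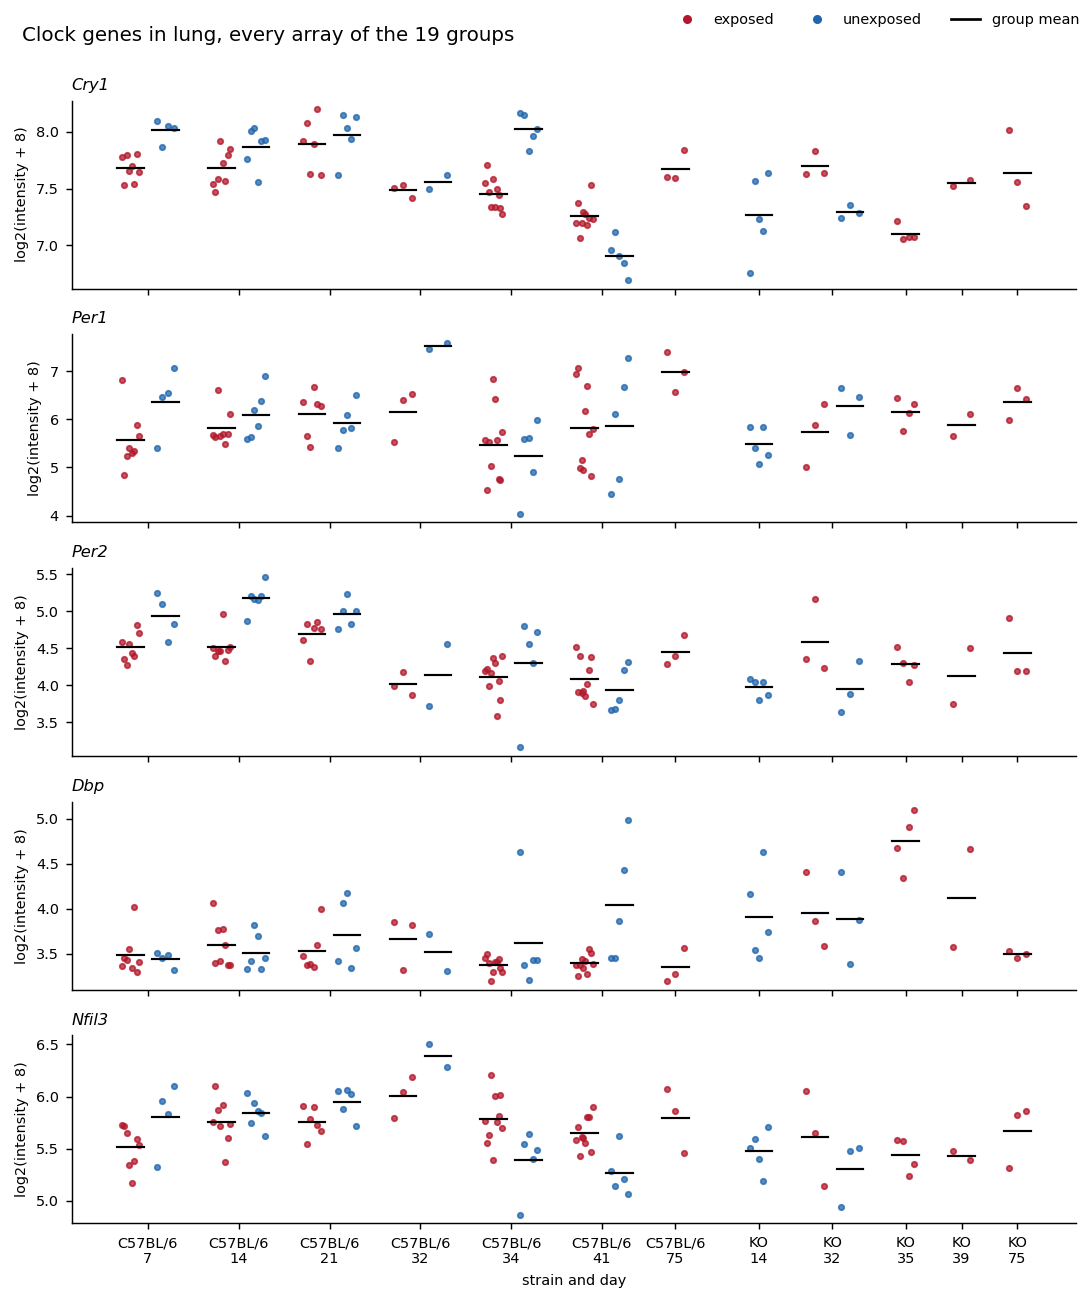
Level of the 5 genes on every array, as log2(intensity + 8) of the main probe set, with exposed mice (red) left of unexposed mice (blue) for each strain and day; KO is CD40L-KO, points are arrays and black lines are group means. Cry1 group means run from 6.91 to 8.02 with little spread inside a group, while Per1 spreads widely inside most groups.

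Group means of Cry1 spanned 1.12 on the log2 scale, against a pooled spread within groups of 0.17 (SD). Differences between groups made up 80.1% of the variance of Cry1 over the 95 arrays, which ranked it 165 among 8252 genes, where the median gene had 43.4%. The share was 65.2% for Per2, 54.7% for Nfil3, 52.9% for Dbp and 36.1% for Per1, whose within-group SD of 0.64 was the widest of the 5. In the order of the 19 group means, neighbouring groups lay further apart than the larger of their SDs in 4 of 18 steps for Cry1, 1 for Per1, 1 for Per2, 0 for Dbp and 1 for Nfil3.

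Cry1, the main repressor of the loop, stood highest in unexposed C57BL/6 mice of days 34, 7 and 21 (8.02 ± 0.14, 8.01 ± 0.10 and 7.97 ± 0.22, SD, n = 5, 4 and 5). It stood lowest in unexposed C57BL/6 mice of day 41 (6.91 ± 0.16, n = 5), and next to them in CD40L-KO mice of day 35 (7.10 ± 0.07, n = 4). Both ends of the order were thus unexposed wild-type mice, and those of days 34 and 41 had shared a cage. The steps that exceeded the SDs separated the unexposed mice of day 41 and the CD40L-KO mice of day 35 from the groups above them, and lay below the CD40L-KO mice of day 39 and the exposed C57BL/6 mice of day 34.

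In experiment 2, Cry1 read 117, 131, 112, 107 and 95.8 units in the unexposed mice of day 41, against 279, 275, 219, 241 and 253 in the unexposed mice of day 34. These 2 ranges did not overlap, and the difference was -1.12 (SE 0.10) on the log2 scale. Overlap of ranges is a description only, here and below, since no share over all genes is given for it. This contrast has no exposure in it, and 2.44% of all genes passed limma at an adjusted p of 0.05 there. In the mice exposed for 34 days Cry1 ranged from 147 to 201 with a median of 168, which lay entirely below the unexposed mice of day 34 (difference -0.57, SE 0.09). In this comparison 8.22% of all genes passed. On day 41 the order was the opposite: exposed mice ranged from 126 to 177 with a median of 143, and all 10 were above the unexposed mean (difference 0.35, SE 0.09), with 0.388% of all genes passing. The exposure difference of day 41 minus that of day 34 was 0.92 (SE 0.12) for Cry1, in a contrast in which 0.109% of all genes passed.

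The unexposed mice of day 34 were also the group with the most squamous arrays and the highest Gapdh ratio and with skeletal muscle transcripts on the same arrays. Without the arrays whose squamous score was at least 6, which left 1 unexposed array on day 34, the Cry1 difference was -1.12 between unexposed days 41 and 34 and -0.57 between exposed and unexposed mice of day 34. With the squamous and muscle scores as covariates they were -1.11 and -0.55. With the Gapdh ratio as a covariate they were -0.99 and -0.48, and the day 41 difference was 0.36. The dim probe set 94421_r_at gave -0.38 (SE 0.12) between the unexposed days, -0.25 (SE 0.11) on day 34 and 0.18 (SE 0.11) on day 41, and 161225_r_at gave -0.09, 0.03 and 0.00, each with an SE of 0.12 to 0.14. In lung homogenate fewer cells of a type and less RNA per cell cannot be told apart.

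**Figure D2:**
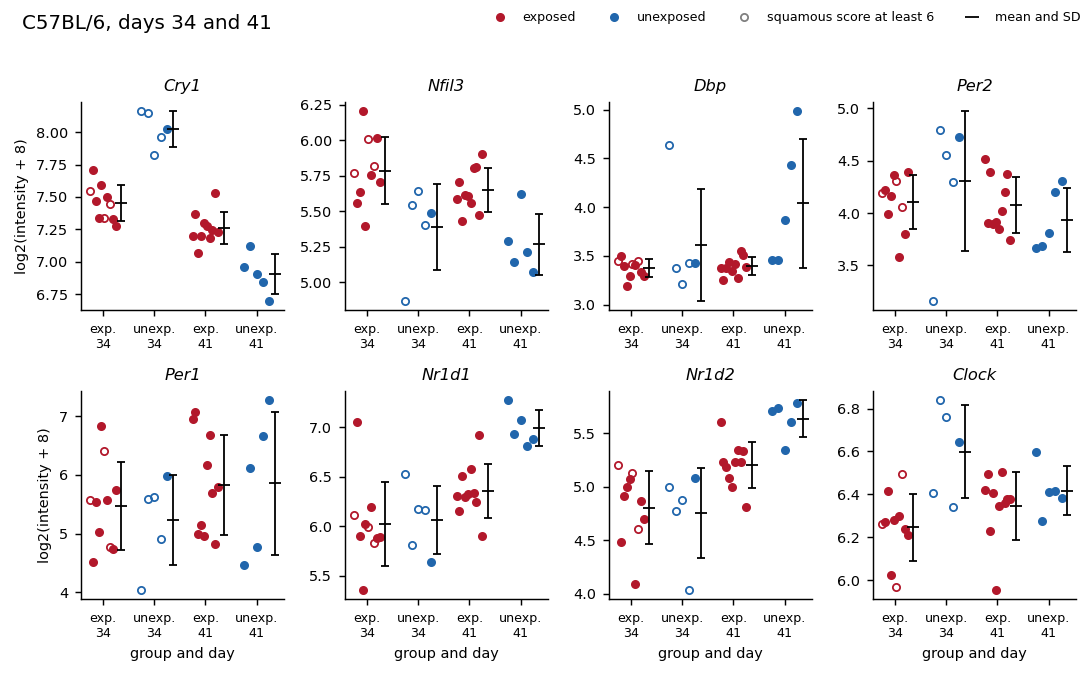
Exposed (red) and unexposed (blue) C57BL/6 mice of days 34 and 41, as log2(intensity + 8) per array, with open circles for arrays with a squamous score of at least 6 and the mean and SD beside each group. Unexposed Cry1 is 6.91 on day 41 and 8.02 on day 34, and unexposed Nr1d1 is 6.99 on day 41 and 6.06 on day 34.

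Early after exposure Cry1 was lower on average in exposed than in unexposed mice. On day 7 it ranged from 177 to 215 with a median of 197 in exposed mice, against 266, 225, 257 and 255 in unexposed mice, with no overlap (difference -0.33, SE 0.11; 0% of all genes passed). On day 14 the range was 170 to 234 with a median of 194 in exposed mice, against 181 to 254 with a median of 235 in unexposed mice (difference -0.19, SE 0.09; 0.267% of all genes passed). By day 21 exposed mice ranged from 189 to 286 with a median of 232, against 189, 276, 254, 236 and 272 in unexposed mice (difference -0.08, SE 0.11; 0% of all genes passed). The unexposed mice themselves differed little in Cry1 over these days, by -0.14 (SE 0.11) on day 14 and -0.04 (SE 0.12) on day 21, each minus day 7.

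On day 32 Cry1 was higher in exposed than in unexposed CD40L-KO mice. It read 189, 219 and 191 in exposed CD40L-KO mice, against 144, 156 and 148 in unexposed ones (difference 0.40, SE 0.12, with 0.0727% of all genes passing). In C57BL/6 mice from the same cages it read 174, 177 and 163 in exposed mice, against 172 and 189 in unexposed mice (difference -0.07, SE 0.14; 1.65% of all genes passed). A squamous score of at least 6 was found in 1 of 3 exposed and 2 of 3 unexposed CD40L-KO arrays of this day. The Gapdh ratio ran from -0.12 to 0.001 in these exposed mice, against 0.22 to 0.45 in the unexposed ones, with no overlap. With this ratio as a covariate the CD40L-KO difference was 0.49 for Cry1. It was 0.17 for Per1, against -0.53 without the covariate, and -0.56 for Dbp, against 0.07. In experiment 4 the values were 141, 125, 126 and 127 on day 35, against 101, 182, 143, 132 and 191 in the controls labelled day 14, with the day 35 values inside the range of the controls (difference -0.16, SE 0.17; 0% of all genes passed). In the exposed groups with no experiment given, Cry1 was 186, 185 and 221 in C57BL/6 on day 75, and 176 and 183 on day 39 and 250.1, 181 and 154 on day 75 in CD40L-KO mice.

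Per2, a second repressor, had the group order most like that of Cry1 (Pearson r = 0.77 over the 19 group means). Its 3 highest groups were the unexposed mice of experiment 3, on days 14, 21 and 7 (5.18 ± 0.19, 4.96 ± 0.19 and 4.94 ± 0.29, SD, n = 6, 5 and 4), and its lowest was again the unexposed mice of day 41 (3.93 ± 0.30, n = 5). On day 14 exposed mice ranged from 12.1 to 23.3 with a median of 14.1, against 21.2 to 36.2 with a median of 28.3 in unexposed mice. All 8 exposed mice were below the unexposed mean, and the ranges overlapped by 1 exposed mouse (difference -0.67, SE 0.11, and -0.36 with an offset of 32). All 8 exposed mice of day 7 and all 6 of day 21 were also below their unexposed means, by 0.42 (SE 0.12) and 0.27 (SE 0.12) on average.

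In C57BL/6 mice of later days the Per2 differences were smaller than or near their errors. They were -0.20 (SE 0.19) on day 34, 0.15 (SE 0.19) on day 41 and -0.13 (SE 0.33) on day 32. In CD40L-KO mice of day 32 Per2 read 12.4, 27.7 and 10.7 in exposed mice, against 4.43, 6.77 and 12 in unexposed mice (difference 0.63, SE 0.29), with overlapping ranges. That difference was 1.5 with the Gapdh ratio as a covariate and 0.18 with the squamous and muscle scores as covariates. On day 35 it read 14.9, 11.8, 8.45 and 11.4, against 8.94, 8.52, 5.95, 8.55 and 6.59 in the controls labelled day 14 (difference 0.32, SE 0.12, and 0.48 and 0.13 with offsets of 2 and 32). The lowest Per2 value of all, 0.94, and the lowest Per1 value, 8.46, came from the same unexposed mouse of day 34, replicate 1, which also had the highest Gapdh ratio of its group, 2.13.

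Per1, the repressor gene that also answers to acute signals, was highest in the 2 unexposed C57BL/6 mice of day 32, at 167 and 184. The exposed C57BL/6 mice of that day read 38, 76.2 and 84.1 (difference -1.37, SE 0.42), a comparison that rests on 2 unexposed arrays. Unexposed CD40L-KO mice of the same cage read 92.5, 43.3 and 80.5. On day 7 Per1 ranged from 20.9 to 105 with a median of 33.7 in exposed mice, against 34.4, 79.6, 84.7 and 125 in unexposed mice (difference -0.80, SE 0.30). On days 34 and 41 the spread inside groups was larger than any difference: on day 41 exposed mice ranged from 20.2 to 126 and unexposed mice read 14.0, 61.4, 19.2, 93.7 and 147. In experiment 4 it read 79.4, 46.3, 61.6 and 71.2 on day 35, against 49.2, 34.6, 25.9, 49.7 and 30.2 in the controls labelled day 14 (difference 0.67, SE 0.20).

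Dbp, the D-box activator, was near the floor in most groups and clearly above it in few. The highest group was the CD40L-KO mice of day 35, at 17.5, 12.3, 21.9 and 26.1, against 9.94, 3.65, 2.93, 16.7 and 5.34 in the controls labelled day 14 (difference 0.85, SE 0.25). All 4 lay above the control mean, while the ranges overlapped. On day 41 the unexposed C57BL/6 mice split, with 2.94, 2.95, 6.55, 13.6 and 23.7, whereas the 10 exposed mice stayed between 1.53 and 3.70 with a median of 2.44 (difference -0.64, SE 0.19). On day 34 exposed mice ranged from 1.15 to 3.29, and of the unexposed mice only replicate 1 left the floor, at 16.8 against 1.24 to 2.75 in the other 4. Since these values are near the floor, the log2 differences depend on the offset: with an offset of 2 the day 35 difference was 1.28 and with an offset of 32 it was 0.38.

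Nfil3, the D-box repressor, stood lowest in the unexposed mice of day 41 (5.27 ± 0.21, SD, n = 5), as Cry1 and Per2 did, and highest in the unexposed C57BL/6 mice of day 32 (6.39 ± 0.16, n = 2). All 10 exposed mice of day 34 and all 10 of day 41 were above their unexposed means, by 0.40 (SE 0.12) and 0.38 (SE 0.12). On day 41 exposed mice ranged from 35.1 to 51.7 with a median of 40.8, against 31.0, 27.3, 41.1, 29.1 and 25.6 in unexposed mice. On day 34 exposed mice ranged from 34.1 to 65.8 with a median of 46.2, against 21.2, 38.6, 41.9, 34.3 and 36.9 in unexposed mice, and without the arrays with a squamous score of at least 6 the difference was 0.26. The second Nfil3 probe set gave 0.43 (SE 0.24) on day 34 and 0.16 (SE 0.24) on day 41. Its lowest group mean was that of the unexposed mice of day 34 (5.03), against 5.56 in those of day 41.

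Nfil3 was lower in exposed C57BL/6 mice on days 32, 7 and 21. On day 32 it read 47.6, 58.2 and 64.8 in exposed C57BL/6 mice, against 82.8 and 69.8 in unexposed mice (difference -0.38, SE 0.27). That comparison rests on 2 unexposed arrays, and with the squamous and muscle scores as covariates the difference was -0.017. All 8 exposed mice of day 7 were below the unexposed mean (difference -0.29, SE 0.12), as were all 6 of day 21 (difference -0.19, SE 0.12). In CD40L-KO mice Nfil3 differed by 0.31 (SE 0.24) on day 32 and by -0.04 (SE 0.13) on day 35. The second probe set gave 0.07 (SE 0.18) on day 7 and -0.22 (SE 0.16) on day 32.

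**Figure D3:**
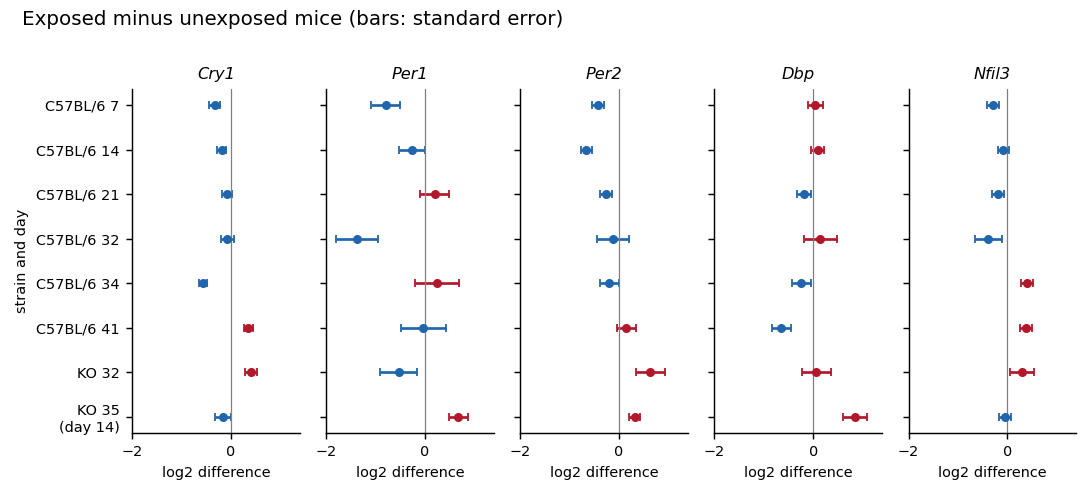
Exposed minus unexposed difference of each gene on the log2 scale for the 8 comparisons, with the standard error as bars; red is higher and blue lower in exposed mice, and the day 35 comparison uses the controls labelled day 14. Cry1 is lower in exposed mice by 0.57 on day 34 and higher by 0.35 on day 41, and Dbp is higher by 0.85 in CD40L-KO mice of day 35.

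Of the 23 other clock genes listed, 17 were measured and entered the test over all genes. Their median difference was 0.04 between unexposed days 41 and 34, -0.04 for exposure on day 34, -0.18 on day 32 in C57BL/6 and 0.26 in CD40L-KO mice, against 0.02, -0.01, -0.01 and 0.06 over all genes. In the unexposed mice, 2 of these 17 passed between days 41 and 34, where 2.44% of all genes did. Both were receptors of the second loop and both were higher on day 41. At an unadjusted p below 0.05 the count was 3 of 17, against 1571 of 8252 genes. Nr1d1, which encodes REV-ERB alpha, read 147, 114, 127, 104 and 110 units in the unexposed mice of day 41, against 84.1, 48.2, 64.0, 63.8 and 41.7 in those of day 34, with no overlap (difference 0.93, SE 0.21, limma adjusted p = 0.0204). Nr1d2, which encodes REV-ERB beta, read 44.2, 45.2, 32.7, 40.8 and 47.2, against 24.0, 19.4, 21.3, 8.4 and 25.9, again with no overlap (difference 0.88, SE 0.18, limma adjusted p = 0.0189). Both receptor genes were therefore higher in the group in which the main probe sets of Cry1, Per2 and Nfil3 had their lowest means. Between these unexposed days, however, Per2 differed by -0.37 (SE 0.22) and Nfil3 by -0.12 (SE 0.14). The second Nfil3 probe set went the other way, at 0.53 (SE 0.28). Without the arrays with a squamous score of at least 6 the differences were 1.36 for Nr1d1 and 0.55 for Nr1d2, given without a test since 1 array was left on day 34. With the squamous and muscle scores as covariates they were 1.05 and 0.91, and neither passed (limma adjusted p = 0.232 and 0.288). With the Gapdh ratio as a covariate Nr1d2 gave 0.54 (limma adjusted p = 0.681), while Nr1d1 still passed.

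Among the exposure comparisons 1 call was made over the other clock genes. On day 34 Clock, the partner of BMAL1 in the activating dimer, was lower in exposed mice, which ranged from 54.7 to 82.2 with a median of 68.9, against 76.9, 107, 100.4, 73.0 and 91.9 in unexposed mice (difference -0.35, SE 0.10, limma adjusted p = 0.0224). This was 1 of 17, where 8.22% of all genes passed. The difference no longer passed with the Gapdh ratio as a covariate (-0.38, limma adjusted p = 0.0735) or with the squamous and muscle scores as covariates (-0.36, limma adjusted p = 0.0618). Without the arrays with a squamous score of at least 6 it was -0.39. At an unadjusted p below 0.05 the count on day 34 was 4 of 17, against 24.3% of all genes. On day 41 none of the 17 passed limma, with 3 at an unadjusted p below 0.05 (7.39% of all genes): Nr1d1 read 51.9 to 113 with a median of 71.5 in exposed mice, with 9 of 10 below every unexposed value (difference -0.64, SE 0.18, limma adjusted p = 0.134), and Nr1d2 gave -0.43 (SE 0.16, limma adjusted p = 0.403). The differences between the exposure effects of days 41 and 34 were -0.60 (SE 0.25) for Nr1d1 and -0.48 (SE 0.23) for Nr1d2, and 0 of 17 passed limma, with 3 at an unadjusted p below 0.05 (10.7% of all genes).

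None of the 17 passed limma on day 32 in C57BL/6 mice, with 3 at an unadjusted p below 0.05 (17.5% of all genes). Bhlhe40, a repressor of CLOCK and BMAL1 that also answers to hypoxia and cytokines, came nearest, at 197, 142 and 194 in exposed mice, against 93.0 and 60.5 in unexposed mice (difference 1.15, SE 0.25, limma adjusted p = 0.0521). In CD40L-KO mice of day 32 none passed limma either, with 6 at an unadjusted p below 0.05 (13.9% of all genes). Among them was Nr1d1 at 37.9, 41.7 and 38.5 in exposed mice, against 66.6, 57.6 and 57.4 in unexposed mice (difference -0.53, SE 0.12, limma adjusted p = 0.102). The Gapdh ratios of these exposed and unexposed mice did not overlap. In experiment 4 none passed limma, with 3 at an unadjusted p below 0.05 (9.34% of all genes): Nr1d1 and Nr1d2 differed by 0.62 (SE 0.20) and 0.70 (SE 0.30), with limma adjusted p = 0.425 and 0.526, beside the higher Dbp of day 35.

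In experiment 3 none of the 17 passed limma on day 7, 14 or 21, with 2, 3 and 2 at an unadjusted p below 0.05 (6.6%, 7.94% and 11.6% of all genes). Nr1d2 was 0.32 (SE 0.16) higher in exposed mice on day 7, and Nr1d1 was 0.36 (SE 0.17) and 0.48 (SE 0.19) higher on days 14 and 21, with limma adjusted p = 0.741, 0.613 and 0.371. Per3, the third Period gene, was 0.35 (SE 0.12) lower on day 21 (limma adjusted p = 0.315). Across the unexposed mice of days 7, 14 and 21, limma's F test passed 0% of all genes and 0 of 17, with 1 at an unadjusted p below 0.05 (7.95% of all genes). For the exposure effect across these days it also passed 0% and 0 of 17, with 1 at an unadjusted p below 0.05 (6.59% of all genes).

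Glucocorticoid-responsive genes were listed because Per1 is one; their median difference was -0.02 for exposure on day 34 and 0.16 between unexposed days 41 and 34, against -0.01 and 0.02 over all genes. Of 13 measured, 3 passed limma on day 34, where 8.22% of all genes did, with Fkbp5 and Cebpd higher by 0.69 and 0.95 and Klf9 lower in exposed mice, at a difference of -0.37 (limma adjusted p = 0.0243, 0.038 and 0.0315). Between the unexposed mice of days 41 and 34, 2 passed, where 2.44% of all genes did, both lower on day 41, with Cdkn1a at -0.82 and Mt2 at -1.34 (limma adjusted p = 0.0204 and 0.0263). Per1 itself differed by 0.24 (SE 0.45) and 0.63 (SE 0.52) in these comparisons, and by -0.56 on day 34 without the arrays with a squamous score of at least 6. At an unadjusted p below 0.05 the count on day 34 was 6 of 13, against 24.3% of all genes. Between the unexposed days it was 7 of 13, against 1571 of 8252 genes. In the other 10 comparisons 0 of 13 passed limma. There 0 to 4 had an unadjusted p below 0.05, against 6.59% to 17.5% of all genes. Leaving out the arrays with a squamous score of at least 6 leaves 1 unexposed array on day 34 and so no firm test. In that fit Fkbp5 was -0.15 and Mt2 0.12.

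Set side by side over the 19 group means, Cry1 and Nfil3 ran against the receptor genes and Dbp ran with them. Of 8251 other genes, Per2 had the highest correlation with Cry1 (Pearson r = 0.77), and Cry1 was the sixth nearest to Per2. Nr1d1 and Nr1d2 were near the other end of the Cry1 list, at r = -0.64 and -0.65 (ranks 95 and 86 from the bottom). Nfil3 was at r = -0.66 with Nr1d1, rank 16 from the bottom, and at -0.36 with Nr1d2, rank 680 from the bottom. Dbp was at r = 0.73 with Nr1d2, rank 43 from the top, and at 0.53 with Nr1d1. The other listed clock genes went both ways with Dbp, from -0.63 for Timeless to 0.50 for Rora. Among them Per3 was at -0.49, Usp2 at -0.27 and Tef at -0.21. Per1 was at r = -0.31 with Nr1d1 and 0.16 with Nr1d2. Dbp had r = -0.52 with Cry1 and -0.50 with Nfil3, and Per1 had r = 0.61 with Nfil3 and 0.02 with Cry1. Arntl, which encodes BMAL1, had r = 0.39 with Cry1 and 0.20 with Nfil3. These values describe 19 groups from several experiments, whose means share cages and arrays and were used to choose the genes, and carry no test.

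**Figure D4:**
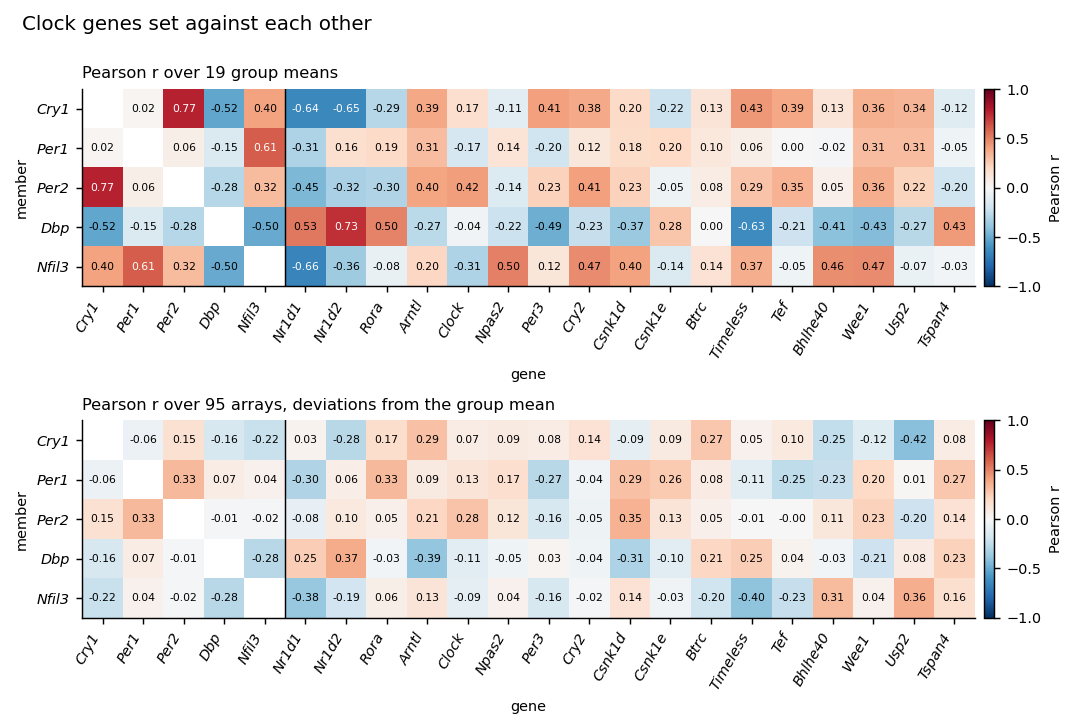
Pearson r of the 5 genes (rows) with each other and with the 17 other clock genes (columns, right of the line), over the 19 group means above and over deviations of the 95 arrays from their group means below; red is positive and blue negative. Cry1 and Per2 are at 0.77 over group means and 0.15 within groups, and Dbp and Nr1d2 at 0.73 and 0.37.

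Outside the lists, 3 genes are named for each member as those whose group means ran most closely with it. For Cry1 these were Pom121, which encodes a nuclear pore protein (r = 0.76), Cep350, a centrosomal protein (0.75), and Nfe2l2, the oxidative stress regulator NRF2 (0.74). For Per2 they were the corepressor gene Rcor1 (0.86), the phosphatase gene Dusp16 (0.79) and the xenobiotic enzyme gene Cyp1a1 (0.78), and for Per1 Gfpt2 (0.77), Rgcc (0.76) and the transcription factor gene Cebpb (0.74). Dbp ran with Akr1a1 (0.83), Bloc1s1 (0.81) and Dnajc4 (0.81), and Nfil3 with Ywhaz (0.81), Eloa (0.77) and Cs, which encodes citrate synthase (0.75).

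The pairs of members were also set against each other among mice of the same group, on deviations that the choice of genes did not use. Of the 10 pairs, 0 passed a permutation test of deviations from the group mean after Benjamini-Hochberg adjustment over the pairs, and 3 had an unadjusted p below 0.05 for Pearson's r (95 arrays, two-sided, 100000 permutations within groups). Per1 and Per2 came nearest (r = 0.33, p = 0.00623, adjusted p = 0.0623; Spearman's rho = 0.29, p = 0.0143, adjusted p = 0.0856), with r = 0.29 without the 2 arrays farthest from the Per1 median. Dbp and Nfil3 were at r = -0.28 (permutation p = 0.0183, adjusted p = 0.0913; rho = -0.26, p = 0.0196, adjusted p = 0.0856) and at -0.15 without 2 arrays. Cry1 and Nfil3 were at r = -0.22 (permutation p = 0.0401, adjusted p = 0.134; rho = -0.25, p = 0.0257, adjusted p = 0.0856) and at -0.18 without 2 arrays. Cry1 and Per2, the closest pair over group means, were at r = 0.15 (permutation p = 0.152, adjusted p = 0.38; rho = 0.22, p = 0.044, adjusted p = 0.11).

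The nearest genes within groups are given as a description over 95 arrays, some of which share the admixture of other tissue. Per1 ran with Klf2, Klf6 and Klf4, which encode Krüppel-like transcription factors (r = 0.64, 0.63 and 0.61). Per2 ran with Dnaja1, Chordc1 and Hsph1, all heat-shock chaperone or co-chaperone genes (r = 0.66, 0.59 and 0.58). Cry1 was nearest to Gne (0.55), Homer3 (0.54) and Trpc4ap (0.53), Nfil3 to Ndufv3 (0.53), Ankrd1 (0.52) and Fgl2 (0.52), and Dbp to Dync1h1 (0.48), Tpm1 (0.45) and 1110038F14Rik (0.44). Among clock genes the strongest values were Cry1 with Usp2 (r = -0.42) and Nfil3 with Timeless (-0.40). Dbp had r = 0.37 with Nr1d2, rank 46 from the top, and r = -0.39 with Arntl, rank 31 from the bottom of 8251 genes. Nfil3 had r = -0.38 with Nr1d1. Cry1 and Nr1d1, at -0.64 over group means, were at 0.03 within groups, and Cry1 and Nr1d2 at -0.28.

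Whether the groups were taken at different clock phases was not tested: the labels used here carry no hour of collection.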

How the data were processed

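Biotin-labelled RNA from lung homogenates was hybridised to Affymetrix arrays, per the labels' protocols. The authors deposited a linear intensity for each of 12487 probe sets on each of 95 arrays (1 value is missing); how probes were summarised is not stated in the labels. With 2% of values trimmed at each end, array means were 100.06 to 100.07, so the deposited intensities had been scaled. Array medians ran from 35.5 to 46.3, and no 2 arrays were identical. The number of arrays limits the precision.

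Values were used as log2(intensity + 8), with the brightest probe set of each of 8252 genes; the platform annotation gave 1 symbol to 10854 probe sets, several to 396 and none to 1236. Groups came from the labels. Each experiment was fitted on its own groups with limma 3.58.1 (lmFit, eBayes, R 4.3.3), with Benjamini-Hochberg adjustment over all genes and a threshold of 0.05; p-values measure the spread between mice within cages. Differences and standard errors of members are from limma fits of the same groups over all 10854 probe sets with 1 symbol. Correlations and permutations used Python 3.11.15 with numpy 2.4.6. Fits and permutations were tested on simulated data.

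The members and gene lists were chosen with earlier results of these data known. Named genes were the members, listed genes that passed or had the 3 smallest p, and for each member the 3 genes outside the lists, brighter than the median gene, with the highest correlation. The other clock genes were Arntl, Clock, Npas2, Per3, Cry2, Csnk1d, Csnk1e, Btrc, Timeless, Nr1d1, Nr1d2, Rora, Tef, Bhlhe40, Wee1, Usp2 and Tspan4. Alternatives covered the offset, normalization, dim genes, probe sets, 1 fit of all arrays, replicate number as a block, RNA quality, other tissue and leaving out replicates; leaving out arrays with a squamous score of at least 6 was chosen after seeing the data.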

Additional observations from a re-analysis of the deposited data

Results flagged for a closer look

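Single arrays stood far from the others of their group, measured as the gap to the nearest array over the range of the group, in 12 of 96 combinations of probe set and group of 4 to 10 arrays. For normally distributed values chance gives about 1 in 20. Several of the 12 came from 161225_r_at and Dbp, whose values lie near the floor, so the count is not comparable with that rate. All values are log2(intensity + 8). For the main Cry1 probe set, replicate 1 of the CD40L-KO mice of day 35 was at 7.22, against 7.06 to 7.07 in the other 3 arrays. Per2 was at 4.97 in replicate 5 of the exposed mice of day 14, with the other arrays at 4.33 to 4.51. Dbp was at 4.02 in replicate 6 of the exposed mice of day 7, with the others at 3.30 to 3.55, and at 4.63 in replicate 1 of the unexposed mice of day 34, with the others at 3.21 to 3.43. The second Nfil3 probe set was low at 4.43 in replicate 6 of the exposed mice of day 14, at 4.16 in replicate 10 of the exposed mice of day 34 and at 5.19 in replicate 1 of the unexposed mice of day 41. The dim Cry1 probe set 161225_r_at had 1 high array at 3.17 in the exposed mice of day 21, 3.39 in the exposed mice of day 41, 3.76 in the CD40L-KO mice of day 35, 3.81 in the unexposed mice of day 34 and 3.42 in those of day 41.

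In some pairs of comparisons every exposed mouse lay on one side of the unexposed mean in the first and on the other side in the second; the difference was not tested in any of them, since the members were chosen on these levels. The Cry1 difference between exposed and unexposed mice was -0.33 (SE 0.11) on day 7, -0.070 (SE 0.14) on day 32 and -0.57 (SE 0.09) on day 34 in C57BL/6 mice, against 0.35 (SE 0.09) on day 41. On day 32 it was -0.070 in C57BL/6 mice and 0.40 (SE 0.12) in CD40L-KO mice. The Nfil3 difference was -0.29 (SE 0.12) on day 7, -0.19 (SE 0.12) on day 21 and -0.38 (SE 0.27) on day 32, against 0.40 (SE 0.12) on day 34 and 0.38 (SE 0.12) on day 41, all in C57BL/6 mice. With the squamous and muscle scores as covariates the day 32 value was -0.017. The second Nfil3 probe set gave 0.07 (SE 0.18), -0.14 (SE 0.18) and -0.22 (SE 0.16) on days 7, 21 and 32. On days 34 and 41 it gave 0.43 (SE 0.24) and 0.16 (SE 0.24).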

How the results depend on the processing

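The count of other clock genes that passed stayed at 0 under every alternative and with any replicate left out in 8 comparisons (CD40L-KO days 32 and 35, days 7, 14 and 21, both F tests and the exposure effect of day 41 minus day 34). On day 32 in C57BL/6 mice it was 0, and 1 (Bhlhe40) with an offset of 32, without dim genes, with all arrays in 1 fit and with the Gapdh ratio as a covariate, and 0 to 1 with single replicates left out. On day 34 it was 1, and 4 with all arrays in 1 fit and 0 with the Gapdh ratio or tissue scores as covariates and without squamous arrays at a score of 7 or of 6, and 0 to 3 with single replicates left out; Clock itself lay between -0.45 and -0.36 under these covariates and without squamous arrays, against -0.35. The count was 0 without unexposed replicate 2 or 3 of day 34 and 3 without replicate 5. On day 41 it was 0, and 1 (Nr1d1) with all arrays in 1 fit, and 0 to 1 with single replicates left out. Between unexposed days 41 and 34 it was 2, and 1 without dim genes or with the Gapdh ratio. The filter for dim genes took out Nr1d2, so no call was lost in that fit. The count was 0 with tissue scores or without squamous arrays at a score of 7. With single replicates left out it was 0 to 4, with 0 without replicate 2 of day 41 and 4 without replicate 5 of day 34. Under the tissue scores and without squamous arrays (score of 7, score of 6) Nr1d1 was 1.05, 1.09 and 1.36, against 0.93, and Nr1d2 0.91, 0.66 and 0.55, against 0.88. The fits without squamous arrays keep 2 (score of 7) or 1 (score of 6) unexposed arrays of day 34, a lone array being assumed to vary like the other groups, so their lost calls say little. Over all genes the count on day 34 was 678 and ran from 17 without squamous arrays (score of 6) to 1279 with all arrays in 1 fit, and between the unexposed days 201, from 1 to 813. Fkbp5 on day 34 was -0.15 and Mt2 between the unexposed days 0.12 without squamous arrays (score of 6), both reversed; the cause was not tested. Of the correlations, Per1 with Per2 passed with an offset of 2 (r = 0.35, adjusted permutation p = 0.05), with quantile normalization (0.39), and without the exposed mice of day 41 (0.40), the unexposed mice of day 7 (0.37), or the CD40L-KO groups of day 32 exposed (0.34), day 75 (0.35) or day 14 (0.32). Dbp with Nfil3 passed without the exposed CD40L-KO mice of day 32 (r = -0.37), Cry1 with Nfil3 without the CD40L-KO mice labelled day 14 (-0.32), and Per2 with Nfil3 without squamous arrays, score of 6 (-0.38). The other 250 values of the correlations kept their side of the threshold. Of 580 member differences under the alternatives, 21 moved by more than the spread between replicates; the mean of all probe sets gave Cry1 -0.26 on day 34, 0.18 on day 41 and -0.53 between the unexposed days, since 2 of its 3 probe sets are near the floor. With the replicate number as a block the counts were again 1 on day 34 (Usp2 in place of Clock, whose limma adjusted p was 0.0519) and 2 between the unexposed days. In no comparison were all same-numbered pairs correlated above 0.1 (range -0.42 to 0.51). With so few pairs this check cannot tell whether some numbers pair mice, and the main fits did not treat them as pairs. The main limits are 2 unexposed C57BL/6 arrays on day 32, Dbp near the floor, and unequal squamous tissue and Gapdh ratios on day 34. Squamous tissue and Gapdh ratios were also unequal between exposed and unexposed CD40L-KO mice of day 32.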
